A study of Mus musculus with 3 samples.

Results

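Interstitial fibroblasts marked by Kcnip1 and Col8a1 are cells of the mouse heart that were chosen by their own transcript counts. A cell was a member when 3 or more of the 7 rule genes Kcnip1, Col8a1, Rgs17, Trhde, Gfra1, Bmper and Kcnk2 were detected in it. Its unique molecular identifiers (UMIs, each standing for 1 captured transcript) over these 7 genes also had to exceed those over the 6 genes Has2, Gfpt2, Pi16, Adamtsl3, Efhd1 and Adgrd1, which mark adventitial-like fibroblasts. The same held against the 6 genes Fbn2, Shisa9, Nkain2, Thsd7b, Aox3 and Ism1 of a further fibroblast-like population, called Fbn2 cells here. No more than 1 UMI could fall on the 5 genes Pecam1, Cdh5, Csf1r, Muc16 and Abcc9 of vessels, macrophages, mesothelium and mural cells. The rule found 2257 of 32226 kept cells. WT gave 631 of them, the Myh6-R404Q library 936 and the Prkag2-p.R299Q library 690.

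Cardiac fibroblasts lie between the muscle cells, build and turn over the collagen network, and are recognised by the receptor gene Pdgfra and by matrix genes such as Dcn. Those of the interstitium sit among the myocytes, while adventitial ones surround larger vessels and express Pi16. Upon injury or in hypertrophic cardiomyopathy, fibroblasts can become activated and lay down excess matrix, which is called fibrosis.

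The hearts came from male mice of the C57/B6J strain. The 3 genotypes were WT, the point mutation Myh6-R404Q in the alpha myosin heavy chain, and the point mutation Prkag2-p.R299Q in a regulatory gamma subunit of the energy-sensing kinase AMPK. Each genotype had 1 library of total heart cells, released with collagenase. Without replicates, genotypes were compared by size alone, with 95% intervals that cover counting error, and both mutants were set against the same WT library. The sources used here do not give the animals' age, their number in a library or how the alleles were made.

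The WT library held 18033 barcodes, that of Myh6-R404Q 12662 and that of Prkag2-p.R299Q 7951, with 41047991, 38251499 and 31385005 UMIs. The deposited Myh6-R404Q matrix also repeated every entry of the WT and Prkag2-p.R299Q matrices, and its 12662 remaining barcodes were used as that library, which rests on elimination. Between 28 and 51 barcode sequences were shared by a pair of libraries. The median kept cell held 1413 UMIs in WT, 1851 in the Myh6-R404Q library and 2344 in the Prkag2-p.R299Q library, an order that the share of members given below followed.

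The label was checked on Pdgfra and Dcn, which the rule did not use. A UMI of Pdgfra, the platelet-derived growth factor receptor of mesenchymal cells, was seen in 42.8% of members in WT, 58.7% in the Myh6-R404Q library and 63.0% in the Prkag2-p.R299Q library. In endothelial reference cells of the same libraries, which should lack the gene, the shares were 5.23%, 4.88% and 3.78%, at median depths of 1448, 1731 and 2010 UMIs against 1891, 2134 and 2667 in members. A UMI of Dcn, the collagen-binding proteoglycan decorin, was seen in 77.0%, 86.1% and 88.1% of members, against 26.4%, 43.4% and 38.2% of the endothelial reference cells. Both genes thus stood above the level in endothelial reference cells in every library. The reference cells had to show fewer than 3 detected genes of each fibroblast rule set, so cells with much fibroblast RNA were left out of them. The source of the Dcn UMIs in endothelial cells was not tested. The genes also marked the other fibroblast populations at like levels: Pdgfra was at 339, 474 and 415 CPM (a gene's share of all UMIs summed over the members, on the usual counts-per-million scale) in the members and at 342, 411 and 326 CPM in adventitial-like cells. The label fibroblast thus fits both genes, whereas the cells' position in the tissue was not measured.

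The 7 rule genes describe the choice and are no finding. Col8a1 (chromosome 16, 57624258 to 57754737, mm10), a short-chain collagen, was seen in 85.6%, 86.2% and 87.2% of members in WT, Myh6-R404Q and Prkag2-p.R299Q. Bmper (chromosome 9, 23223076 to 23485200), a secreted regulator of bone morphogenetic proteins, was seen in 83.0%, 78.2% and 87.1%. Kcnip1 (chromosome 11, 33629339 to 33993152), a calcium-binding partner of potassium channels, gave the population its name but was seen in 25.2%, 25.5% and 22.6% of members. Its level was 242 CPM in WT members, 240 in Myh6-R404Q members and 210 in Prkag2-p.R299Q members, and 5.31, 3.88 and 4.93 CPM in adventitial-like cells. The other rule genes were Rgs17, a regulator of G protein signalling (50.3% to 58.3%), Gfra1, a receptor for glial cell line-derived neurotrophic factor (43.8% to 60.04%), Trhde, an ectoenzyme that degrades thyrotropin-releasing hormone (22.4% to 25.4%), and Kcnk2, a mechanosensitive potassium channel (24.1% to 44.8%). Most members met the threshold narrowly: exactly 3 rule genes were detected in 64.3% of members in WT, 55.2% in the Myh6-R404Q library and 54.5% in the Prkag2-p.R299Q library. Cells with exactly 2 rule genes that met the other conditions numbered 765, 550 and 376, against 406, 517 and 376 with exactly 3. Their Pdgfra level was 377, 437 and 411 CPM, against 338, 479 and 450 CPM just inside the threshold, so the edge of the population is not a gap.

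**Figure D1:**
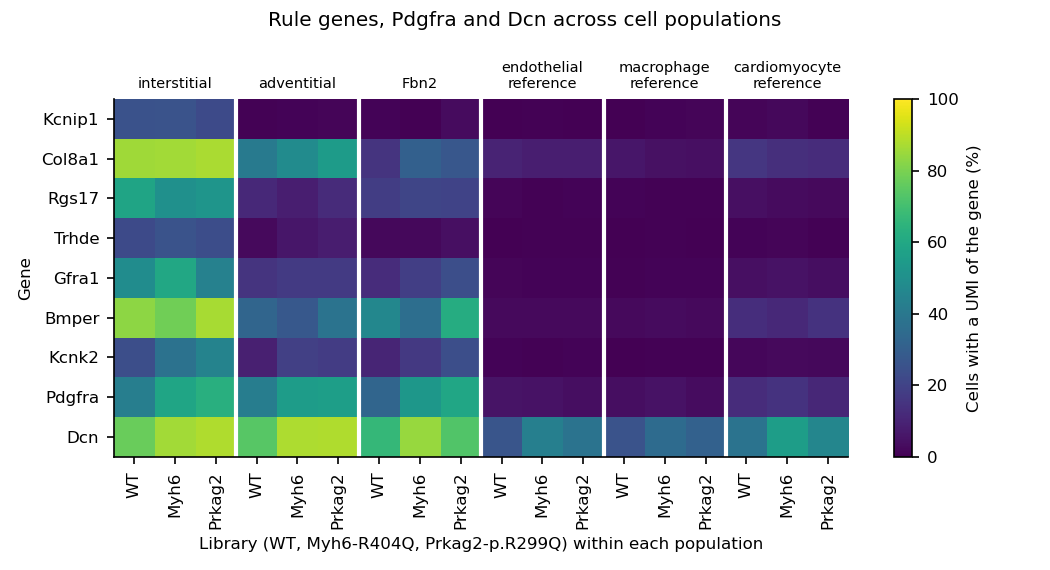
Share of cells with at least 1 UMI (colour, in percent) of the 7 rule genes, Pdgfra and Dcn (rows) in the 3 fibroblast populations and in endothelial, macrophage and cardiomyocyte reference cells, each by library (columns). Col8a1 was seen in 85.6% to 87.2% of members and Kcnip1 in 22.6% to 25.5%, while Dcn was also seen in 26.4% to 43.4% of endothelial reference cells.

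Members made up a larger part of the heart's cells in both mutant libraries than in WT, and by a smaller ratio once depth was made equal. They were 4.26% of kept cells in WT (3.94 to 4.59, exact binomial interval). In the Myh6-R404Q library they were 8.87% (8.33 to 9.43), and 10.1% with Prkag2-p.R299Q (9.38 to 10.8). The ratio to WT was 2.08 (1.89 to 2.30) for Myh6-R404Q and 2.37 (2.14 to 2.63) for Prkag2-p.R299Q. A deeper cell shows more of the 7 genes, so each cell was also thinned to 1000 UMIs, which left out 3983, 1498 and 808 shallower cells. Members were then 2.86%, 4.94% and 4.69%, and the ratios to WT were 1.73 (1.498 to 1.99) and 1.64 (1.40 to 1.92). Prkag2-p.R299Q stood 1.14 times above Myh6-R404Q (1.04 to 1.25) at full depth and 0.951 times (0.822 to 1.10) after thinning, so no order between the mutants was detectable.

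Within the fibroblasts, too, members were a larger part in the mutant libraries. Among the cells of the 3 fibroblast populations they were 45.8% in WT, 69.8% with Myh6-R404Q and 61.1% with Prkag2-p.R299Q, and 41.6%, 68.8% and 58.1% after thinning. The remainder were adventitial-like cells (577, 314 and 340) and Fbn2 cells (171, 91 and 100). The shares rest on cells that met 1 of the 3 rules and not on all fibroblasts, and a share also depends on which cells survive digestion. Called doublets among cells that met the rule were 15.8%, 11.5% and 8.12%, and these had been removed.

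**Figure D2:**
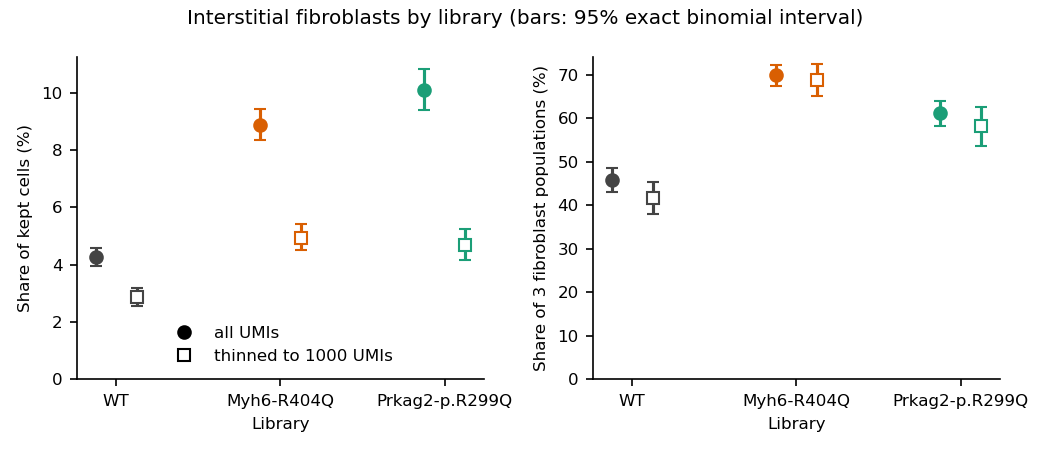
Share of interstitial fibroblasts (y axis, in percent, from 0) among all kept cells (left) and among cells of the 3 fibroblast populations (right), by library (x axis). Filled circles use all UMIs, open squares cells thinned to 1000 UMIs, and bars are 95% exact binomial intervals. WT was lowest in all 4 sets, at 4.26% and 2.86% of kept cells and 45.8% and 41.6% of the fibroblast populations.

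Beyond the rule genes, Blnk, Adgrl3, Fap and Col6a3 were among the genes higher in members than in the other fibroblasts, given here as a description because the rule used the same contrast. Of 7032 genes, 377 were higher in members than in both other populations in all 3 libraries and 235 were lower. The number of genes that counting error alone would place there was not tested. By at least 1.5-fold in all 6 comparisons, 24 were higher and 14 lower. Blnk (chromosome 19, 40928927 to 40994535), an adaptor protein best known from B cells, was at 89.6, 99.7 and 76.3 CPM in WT, Myh6-R404Q and Prkag2-p.R299Q members. It was at 20.4, 12.9 and 6.91 CPM in adventitial-like cells, and 3.46-fold was its closest ratio over the 6 comparisons. The B cell receptor gene Cd79b was at 0 UMIs in the members of all 3 libraries. Other B cell genes, Cd79a, Ms4a1, Bank1 and Ighm, had UMIs in members of each library. The part of B cell RNA in the Blnk level was not tested. Adgrl3, a latrophilin adhesion receptor, was at 382, 490 and 351 CPM in members and 149, 194 and 125 CPM in adventitial-like cells. Necab1, a calcium-binding protein, Syn2, a synapsin of vesicles, Pde1c, a calcium-dependent phosphodiesterase, and Apba2, an adaptor of the amyloid precursor protein, had closest ratios of 3.14, 3.12, 2.43 and 2.33. Fap, a surface protease that is also a marker of activated fibroblasts, was at 251, 401 and 256 CPM in members against 107, 163 and 114 CPM in adventitial-like cells. Col6a3, a chain of microfibrillar collagen VI, was at 407, 427 and 351 CPM against 231, 168 and 182 CPM. Heyl, a Notch target, Hsd11b1, the enzyme that regenerates active glucocorticoid, and the transcription factor Msc also belonged to the 15 with the highest closest ratios.

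On the low side, Dpp4, a surface peptidase of adventitial progenitor-like fibroblasts, was at 22.8, 29.4 and 23.6 CPM in members and at 108, 158 and 145 CPM in adventitial-like cells. Sema3c, a secreted guidance protein, was at 37.7, 46.6 and 52.2 CPM against 229, 345 and 256 CPM. Scara5, a ferritin receptor, was at 289, 321 and 459 CPM against 522, 610 and 751 CPM. Col14a1, a collagen that binds fibrils, was at 58.9, 76.9 and 68.0 CPM against 105, 259 and 199 CPM. Ntrk3, a neurotrophin receptor, Npr1, the natriuretic peptide receptor, and Slc4a4, a bicarbonate transporter, were lower as well. The 3 libraries of members did not overlap with the 3 of adventitial-like cells for Blnk, Adgrl3, Fap, Col6a3, Dpp4, Sema3c, Scara5 and Col14a1. These genes were picked for their ratios between the same cells, so this follows largely from the choice and is no finding. The share of all genes without overlap was not counted.

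Among the members themselves, 16 genes ranked within the 30 highest Fano factors (variance over mean of UMIs, 1 for pure counting error) in all 3 libraries, with cells thinned to 1000 UMIs. The median gene stood at 1.06, 1.07 and 1.06 in WT, Myh6-R404Q and Prkag2-p.R299Q. C7, the complement component that joins the membrane attack complex, had Fano factors of 4.99, 1.92 and 2.93. It was seen in 24.2%, 8.37% and 30.8% of the thinned members, a share that depends on depth and does not limit how many cells express the gene. Gsn, the actin-severing protein gelsolin, had Fano factors of 2.27, 2.96 and 4.02 and was seen in 55.8%, 70.8% and 72.9%. The matrix-associated genes Gpc6, a glypican (3.45, 2.69 and 3.32), Slit3, a secreted guidance protein (2.50, 2.21 and 2.41), and Itgbl1, an integrin-like protein (2.05, 1.90 and 2.19), were also uneven. So were the cell adhesion genes Pcdh9, Lsamp and Negr1, with Fano factors between 2.01 and 2.73. Ttn and Myh6, which encode muscle proteins, had 3.11, 5.57 and 5.58, and 2.46, 5.72 and 3.90. The nuclear RNA Malat1 was seen in 100% of members with Fano factors of 4.63, 3.47 and 3.73.

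**Figure D3:**
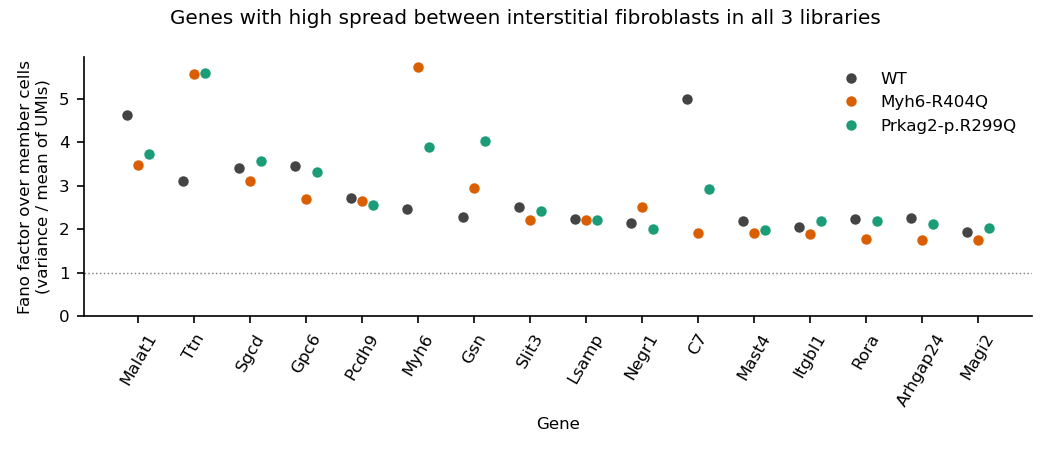
Fano factor (y axis, variance over mean of UMIs, from 0) of the 16 genes ranked within the 30 highest in all 3 libraries (x axis), over members thinned to 1000 UMIs (590 WT, 920 Myh6-R404Q, 679 Prkag2-p.R299Q cells). Points are libraries and the dotted line at 1 is pure counting error. C7 stood at 4.99 in WT and 1.92 in Myh6-R404Q, while Ttn and Myh6 were higher in both mutants than in WT.

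RNA of other cell types was present in the members and differed between libraries. The 12 cardiomyocyte markers summed to 11355 CPM in WT members, 9127 in Myh6-R404Q members and 5920 in Prkag2-p.R299Q members, against 35581, 30721 and 36318 CPM over cells outside the fibroblast populations, and all 12 had UMIs. The 12 endothelial markers summed to 627, 475 and 323 CPM in members, the 12 macrophage markers to 169, 149 and 126 CPM, and the 12 pericyte and smooth muscle markers to 306, 306 and 268 CPM with Cnn1 at 0 in Prkag2-p.R299Q. The 10 mesothelial markers summed to 70.7, 188 and 77.8 CPM, highest in Myh6-R404Q as they were outside the fibroblasts (685, 1661 and 991 CPM). The 8 Schwann cell markers summed to 775, 793 and 795 CPM, mostly from Scn7a, at 579, 553 and 537 CPM, which fibroblasts also express. The defining Schwann gene Sox10 was at 0 UMIs in Prkag2-p.R299Q members, which allows up to 1.48 CPM. The 10 lymphocyte markers summed to 12.6, 18.2 and 9.36 CPM and the 6 adipocyte markers to 0, 0.932 and 0 CPM. Because muscle RNA was lower in Prkag2-p.R299Q members than in WT ones, every other gene takes a somewhat larger part of the CPM total there. Ratios were also taken over totals without cardiomyocyte markers and mitochondrial genes, and beyond that the part of this RNA in the results was not tested.

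The comparison of Myh6-R404Q with WT addressed whether these fibroblasts differ when the heart muscle carries a myosin mutation. Genes were counted when their mean level over the 3 libraries was at least 20 CPM, and a gene was called when its CPM ratio was at least 1.5-fold. Of 7529 genes, 472 were higher (6.27%) and 393 lower (5.22%) in Myh6-R404Q members, with a median log2 ratio of 0.02. In these members 7 of 18 basement membrane genes, the elastin gene Eln and the collagen gene Col5a3 were higher. The clock activators Npas2 and Arntl were higher and 5 other clock genes lower. C7, Mmp3, 3 of 8 chemokines and cytokines, 5 of 6 acute phase genes and 8 of 13 heat shock genes were lower. A call is a size and not a test, and with 1 library a genotype cannot be told apart from its preparation.

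Among matrix genes, the basement membrane list had the most calls in Myh6-R404Q members. Of 18 counted basement membrane and microfibrillar genes, 7 were at least 1.5-fold higher and 0 lower, with a median log2 ratio of 0.48 against 0.02 over all genes. The collagen IV chains led: Col4a4 was at 230 CPM in WT and 443 CPM in Myh6-R404Q (ratio 1.93, 1.69 to 2.20), and Col4a6 at 46.4 and 133 CPM (2.88, 2.17 to 3.87). Col4a3, at 113 and 180 CPM, and Col4a5, at 140 and 244 CPM, had ratios of 1.59 and 1.75, whereas Col4a1 and Col4a2, which vessels also make, had ratios of 0.977 and 0.859. Lamb1, a laminin chain, was at 171 and 279 CPM (1.63), and Nid1, which links laminin to collagen IV, at 337 and 519 CPM (1.54, 1.38 to 1.72). Col6a6 was at 239 and 375 CPM (1.57). Lama2, the laminin chain of muscle basement membranes, was at 3043 and 3468 CPM, a ratio of 1.14 (1.10 to 1.19).

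Of 7 counted fibrillar collagens, 1 was called higher and 0 lower, with a median log2 ratio of 0.28. Col5a3 (chromosome 9, 20770050 to 20815067), a chain of the collagen V that starts fibrils, was at 135, 361 and 169 CPM in WT, Myh6-R404Q and Prkag2-p.R299Q members. Its ratio of Myh6-R404Q to WT was 2.67 (2.26 to 3.17), and in adventitial-like cells it was 2.70. Col1a1, Col1a2 and Col3a1, the main fibrillar chains, were inside 1.5-fold, at ratios of 1.21 (1.01 to 1.45), 1.20 (1.06 to 1.35) and 1.35 (1.25 to 1.45). Of 14 elastic fibre genes, 2 were higher and 0 lower. Eln (chromosome 5, 134702593 to 134747323), the gene of elastin, was at 147, 344 and 137 CPM in WT, Myh6-R404Q and Prkag2-p.R299Q members, and Myh6-R404Q stood 2.34 times above WT (1.99 to 2.76). Fbln5, which assembles elastic fibres, was at 36.9, 70.8 and 45.3 CPM (ratio 1.92 to WT), and Fbn1, the fibrillin scaffold, at 466, 676 and 455 CPM (1.45). Eln, Fbln5 and Fbn1 thus shared an order in which Myh6-R404Q was highest.

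Of 11 proteoglycans, 3 were higher and 2 lower. Lum, Ogn and Prelp, small leucine-rich proteoglycans that bind collagen, had ratios of 1.73, 1.77 and 2.36, and Podn and the large proteoglycan Vcan 0.634 and 0.592, of which Podn was at 1.07 with the matrix as deposited. Vcan was at 314 CPM in WT and 185 CPM in Myh6-R404Q (0.514 to 0.681 as an interval of the ratio), and in adventitial-like cells its ratio was 0.914. Among 11 fibroblast identity genes, 3 were called higher (Lamb1, Lum and Gsn) and 0 lower. Gsn was at 1066, 1823 and 2116 CPM in WT, Myh6-R404Q and Prkag2-p.R299Q members.

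Of 9 counted genes of activated fibroblasts 1 was higher and 2 lower, with a median log2 ratio of -0.08. Fap was at 251 CPM in WT and 401 in Myh6-R404Q (1.60, 1.41 to 1.82), a ratio that was inside 1.5-fold with cells thinned, with 4 rule genes required or with the matrix as deposited. Postn (chromosome 3, 54361109 to 54391037), the matricellular protein periostin, was at 38.5, 17.7 and 60.6 CPM in WT, Myh6-R404Q and Prkag2-p.R299Q members. Its ratio of 0.460 in Myh6-R404Q (0.293 to 0.717) was 1.001 with the matrix as deposited, and was also inside 1.5-fold with thinned cells or with 4 rule genes required. Ccn2, a target of TGF-beta and mechanical load, was at 37.7 and 21.0 CPM (0.556). Thbs2 and Sparc, further matricellular genes, had ratios of 1.36 and 1.06.

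Of 16 matrix proteases and inhibitors, 1 was higher and 2 lower. Mmp3 (chromosome 9, 7445822 to 7455975), stromelysin, was at 51.1, 14.0 and 11.3 CPM in WT, Myh6-R404Q and Prkag2-p.R299Q members, so WT stood apart from both mutants. Its ratios to WT were 0.274 (0.171 to 0.428) and 0.222 (0.132 to 0.362), and it was also lower in adventitial-like cells of both (0.137 and 0.0348). Adam12, a membrane protease, was at 49.5, 27.0 and 29.1 CPM, and Adamts12, a secreted protease, at 161, 298 and 227 CPM. Mmp2, the gelatinase of resting fibroblasts, and Timp2, an inhibitor, were inside 1.5-fold in both mutants.

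Growth factor genes had median log2 ratios of 0.10 over 16 ligands and 0.03 over 21 receptors in Myh6-R404Q members. Igf1 was at 203, 193 and 263 CPM in WT, Myh6-R404Q and Prkag2-p.R299Q members, and Angpt1, the Tie2 ligand, at 532, 505 and 552 CPM. Of the ligands 1 was called, Vegfa, lower at a ratio of 0.490 (104, 50.8 and 61.6 CPM), and cells outside the fibroblast populations carried 401, 257 and 368 CPM of it. Egfr was at 677, 889 and 794 CPM and Tgfbr3, a coreceptor of TGF-beta, at 699, 592 and 758 CPM. A pair of receptors was called lower. Ret (chromosome 6, 118151745 to 118197718), the signalling partner of the rule gene Gfra1, was at 95.9, 32.6 and 72.9 CPM in WT, Myh6-R404Q and Prkag2-p.R299Q members. The ratio of Myh6-R404Q to WT was 0.340 (0.25 to 0.460), against 0.760 in adventitial-like cells, where Ret was at 214, 163 and 180 CPM. Osmr, the oncostatin M receptor, was at 301, 172 and 184 CPM, lower in both mutants at 0.573 (0.495 to 0.663) and 0.612 (0.529 to 0.708), the former inside 1.5-fold when cells were thinned or the deposited matrix was used.

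Of 13 counted modulators and targets of BMP and TGF-beta signalling 1 was higher and 1 lower in Myh6-R404Q, with a median log2 ratio of -0.03. Id3, a target of BMP signalling, was at 49.5, 76.9 and 45.8 CPM in WT, Myh6-R404Q and Prkag2-p.R299Q members (1.55), and Smad7, an inhibitor of the pathway, at 114, 110 and 124 CPM. In the Wnt list 1 of 8 counted genes was higher, the coreceptor Lrp5 (58.2, 93.7 and 58.6 CPM), and 0 were lower. Tcf4, the most abundant of that list by CPM, had a ratio of 1.01 (0.965 to 1.07).

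Of 24 counted transcription factors of cardiac fibroblasts, 2 were higher in Myh6-R404Q, Osr1 (14.1, 28.4 and 25.6 CPM) and Klf2 (36.1, 69.4 and 45.3 CPM), and 0 lower; the Osr1 ratio of 2.01 was 0.694 with thinned cells. Tbx20 was at 422, 562 and 590 CPM and Gata4 at 161, 231 and 210 CPM in WT, Myh6-R404Q and Prkag2-p.R299Q members, both inside 1.5-fold in both mutants. Nfia, Zeb1 and Ebf1, the most abundant of the list by CPM, had ratios of 1.07, 0.737 and 1.123 in Myh6-R404Q. Tcf21, the factor that marks the cardiac fibroblast lineage, was at 26.7, 31.7 and 37.4 CPM.

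The circadian clock runs as a loop in which Arntl pairs with Clock or Npas2 and turns on the Per, Dbp, Tef and Bhlhe genes through E-box motifs, while Per3 and others also carry D-box motifs read by Dbp and Tef. In Myh6-R404Q members, the activators and their targets went opposite ways: of 15 counted clock genes 2 were higher and 5 lower, with a median log2 ratio of -0.40. Npas2 (chromosome 1, 39193731 to 39363236) was at 40.1, 145 and 21.7 CPM in WT, Myh6-R404Q and Prkag2-p.R299Q members. Arntl (chromosome 7, 113207465 to 113314126) was at 33.0, 76.0 and 11.3 CPM. Both activators were thus highest in Myh6-R404Q and lowest in Prkag2-p.R299Q, with ratios of Myh6-R404Q to WT of 3.62 (2.68 to 4.96) and 2.30 (1.63 to 3.31). Per2 was at 57.4, 28.9 and 61.1 CPM, Per3 at 80.2, 51.3 and 108 CPM, Dbp at 62.9, 33.1 and 88.1 CPM, and Tef at 181, 105 and 232 CPM. Bhlhe41 was at 33.0, 21.4 and 53.2 CPM. These 5 targets, of which Bhlhe41 was at a ratio of 1.09 with the matrix as deposited, were lowest in Myh6-R404Q and highest in Prkag2-p.R299Q. Dbp in Myh6-R404Q was 0.526 times its WT level, but 1.07 times with cells thinned to 1000 UMIs, where the members are fewer. In adventitial-like cells the ratios of Myh6-R404Q to WT were 3.20 for Npas2, 2.82 for Arntl and 0.672 for Dbp, while over cells outside the fibroblast populations Dbp was at 58.1, 71.3 and 82.7 CPM. The time of day at which the hearts were taken is not given in the sources used here.

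Promoters of the lower clock genes are shown because these genes were lower together. For 4 of the 5 a window around the RefSeq gene start (300 bases, GRCm38.p6) was found in the table used. The E-box was searched as CACGTG, which reads the same on both strands, and the D-box as TTATGTAA or TTATGCAA on either strand, with no overlap between the motifs. An E-box was in 7.15% and a D-box in 1.66% of 32851 such windows of all genes. Tef held an E-box in both of its windows, the first of which is at chr15:81802423-81802722 on the plus strand. Bhlhe41 held an E-box at chr6:145865371-145865670 on the minus strand, and Per3 held 2 D-boxes at chr4:151044616-151044915 on the minus strand. Dbp held neither in its window, and Per2 was not looked up elsewhere. Capitals mark the motifs, which are matches of letters and not measured binding sites.
Tef: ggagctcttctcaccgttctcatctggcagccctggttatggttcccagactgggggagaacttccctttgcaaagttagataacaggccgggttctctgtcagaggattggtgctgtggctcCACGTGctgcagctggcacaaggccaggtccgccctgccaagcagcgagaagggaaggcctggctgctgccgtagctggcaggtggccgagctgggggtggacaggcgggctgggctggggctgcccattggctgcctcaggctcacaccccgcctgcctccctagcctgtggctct
Bhlhe41: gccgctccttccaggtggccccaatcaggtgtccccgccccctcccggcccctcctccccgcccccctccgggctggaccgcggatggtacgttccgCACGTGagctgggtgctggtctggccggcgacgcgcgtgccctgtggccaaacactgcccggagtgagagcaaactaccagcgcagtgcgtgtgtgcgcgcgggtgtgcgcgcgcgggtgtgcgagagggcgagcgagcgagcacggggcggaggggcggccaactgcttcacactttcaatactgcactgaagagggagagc
Per3: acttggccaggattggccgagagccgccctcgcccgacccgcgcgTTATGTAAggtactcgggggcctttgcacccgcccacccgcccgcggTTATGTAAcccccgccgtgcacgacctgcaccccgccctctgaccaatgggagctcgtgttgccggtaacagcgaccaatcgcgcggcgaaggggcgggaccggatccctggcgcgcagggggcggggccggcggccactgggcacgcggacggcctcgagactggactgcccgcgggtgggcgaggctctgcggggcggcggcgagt

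Complement genes were called in both directions in Myh6-R404Q members, while the called chemokine and acute phase genes were lower. C7 (chromosome 15, 4988762 to 5063740) was at 725, 128 and 663 CPM in WT, Myh6-R404Q and Prkag2-p.R299Q members. The Myh6-R404Q library stood apart, with a ratio to WT of 0.177 (0.154 to 0.202), and this ratio was 0.307 in adventitial-like cells. Cells outside the fibroblasts were at 126, 21.2 and 95.3 CPM, so the Myh6-R404Q library was lowest there as well. Of 9 counted complement genes 2 were higher and 2 lower. C3, the central complement protein, was at 184, 290 and 313 CPM, but it was also at 186, 598 and 533 CPM over cells outside the fibroblasts. C4b was at 64.4, 23.8 and 32.5 CPM. Of 8 chemokines and cytokines 3 were lower and 0 higher (median log2 ratio -0.51): Ccl2, which draws monocytes, was at 34.6, 10.3 and 17.7 CPM, Cxcl1, which draws neutrophils, at 44.8, 12.6 and 18.7 CPM, and Cxcl12 at 40.9, 25.2 and 25.6 CPM. For Cxcl12 both ratios turned to 1.19 and 1.31 when 4 rule genes were required. Of 6 acute phase genes 5 were lower (-0.95). Serpina3n, a protease inhibitor of inflammation, was at 47.2, 8.39 and 22.2 CPM (ratio 0.178, 0.0989 to 0.306, in Myh6-R404Q), and the metallothionein Mt1 at 95.9, 46.6 and 45.3 CPM. WT was the highest of the 3 libraries for C4b, Ccl2, Cxcl1, Cxcl12, Serpina3n and Mt1.

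Most heat shock genes, which respond to stress that includes tissue digestion, were lower in Myh6-R404Q than in WT members. Of 13 counted heat shock genes 8 were lower in Myh6-R404Q and 0 higher, with a median log2 ratio of -0.74. Of these 8, Hsp90aa1, Hsph1, Dnajb4, Chordc1 and Stip1 came inside 1.5-fold with thinned cells. Hspa8, Hspd1 and Dnaja1 did not. Hsph1, a chaperone, was at 92.7, 37.3 and 67.5 CPM and Hspa8, the constitutive HSP70, at 221, 129 and 112 CPM. Of 10 immediate early genes Klf2, given above, was higher in Myh6-R404Q, and 2 were lower in both mutants, Junb (101, 30.3 and 36.4 CPM) and Egr1 (118, 43.3 and 45.3 CPM), while Jun, at 43.2, 41.0 and 37.4 CPM, was inside 1.5-fold. Outside the fibroblasts WT was also highest for Hsph1 and Junb, with Hsph1 at 75.2, 27.0 and 42.2 CPM and Junb at 45.3, 26.2 and 24.6 CPM.

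Of 19 lipid, retinoid and glucose genes 8 were higher and 2 lower. Slc7a11, the cystine transporter, was at 42.4, 127 and 61.1 CPM (ratio 3.00, 2.23 to 4.09), Txnip, a glucose-responsive inhibitor of thioredoxin, at 119, 260 and 157 CPM, and Apoe at 60.5, 142 and 95.05 CPM. Txnip and Apoe were at similar levels outside the fibroblasts (151, 328 and 178 CPM, and 78.9, 146 and 100 CPM). Aldh1a2, a retinoic acid synthase, was at 158, 55.5 and 74.9 CPM, lower in both mutants. Of 16 ion channel and gap junction genes 1 was higher and 6 lower, and 5 of these 6 stood well below their level in cells outside the fibroblasts. The sixth, Kcnn3, a calcium-activated potassium channel, was at 40.1, 9.32 and 13.8 CPM, with ratios of 0.233 (0.131 to 0.397) for Myh6-R404Q and 0.344 for Prkag2-p.R299Q. Rgs6, a regulator of G protein signalling, was at 93.5, 252 and 95.5 CPM, a ratio of 2.69 (2.20 to 3.31) in Myh6-R404Q. The channel gene Kcnt2 and the sodium channel Scn7a were near WT, at ratios of 0.976 and 0.955.

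By size alone, 34 genes met the naming rule on the high side and 26 on the low side in Myh6-R404Q, which required at least 2-fold, an interval beyond 1.5-fold and a level at least 0.5 times that outside the fibroblasts. The highest ratio was that of Cirbp, a cold-inducible RNA-binding protein, at 11, 45.2 and 28.6 CPM in the same order (4.11, 2.34 to 7.80). Its level in Myh6-R404Q members was 1.085 times that over cells outside the fibroblasts. In adventitial-like cells the Cirbp ratio was 1.90 (1.02 to 3.59). Col26a1, a collagen (3.48), Pamr1, a secreted protease-like protein (3.35), Catspere2 (3.19), Pebp4 (3.11), Itih5, a hyaluronan-binding protein (2.72), and Me3, a mitochondrial malic enzyme (2.70), were also among the 10 highest, with Npas2, Slc7a11 and Col4a6. In WT members Col26a1, Pamr1, Catspere2 and Pebp4 were at 11.8, 11, 10.2 and 13.4 CPM, so these ratios rest on few UMIs. In adventitial-like cells the ratios were 1.67 (0.529 to 5.40) for Col26a1, 1.34 (0.920 to 1.96) for Pamr1 and 1.17 (0.566 to 2.37) for Catspere2. They were 2.68 for Pebp4, 3.21 for Itih5, 3.07 for Me3, 2.80 for Slc7a11 and 3.66 for Col4a6. On the low side stood Mthfd1l, a mitochondrial folate enzyme (0.303), and Mid1ip1, a regulator of lipid synthesis (0.337), besides C7, Serpina3n, Kcnn3, Mmp3, Cxcl1, Ccl2 and Junb given above. Of the genes named for this comparison outside the heat shock list, C4b, Ogn and Klf2 came inside 1.5-fold with thinned cells. With 4 rule genes required, Ccn2, Col6a6, Id3, Lum and Nid1 did so, and with doublets kept Nid1, Per3, Lrp5 and Bhlhe41. With the matrix as deposited, which adds WT and Prkag2-p.R299Q cells to the Myh6-R404Q ones, Arntl, Per2, Tef, Vcan, Fbln5, Lamb1, Col4a3, Col4a5, Adam12, Adamts12 and Mthfd1l also did.

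The comparison of Prkag2-p.R299Q with WT addressed the same question for the kinase mutation. Of 7529 genes, 402 were higher (5.34%) and 454 lower (6.03%), with a median log2 ratio of -0.01. In these members 4 of 11 fibroblast identity genes, 6 of 18 basement membrane genes, Inmt and Fkbp5 were higher, and Mmp3, 3 of 8 chemokines and cytokines and most cardiomyocyte markers were lower. All 12 cardiomyocyte markers were counted, and 11 of them were at least 1.5-fold lower (median log2 ratio -0.80). Myh6, the gene of the alpha myosin heavy chain, was at 2112, 1882 and 1175 CPM in WT, Myh6-R404Q and Prkag2-p.R299Q members.

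Of 11 fibroblast identity genes 4 were higher and 0 lower, with a median log2 ratio of 0.49. Gsn had a ratio of 1.98 (1.87 to 2.11), Lamb1 1.61 and Lum 1.54. Col3a1, the fibrillar collagen of pliable tissue and scars, was at 773, 1040 and 1225 CPM in WT, Myh6-R404Q and Prkag2-p.R299Q members, the single fibrillar collagen called of 7, at 1.58 (1.47 to 1.71). It was inside 1.5-fold with thinned cells. Col1a1 was at 145, 175 and 211 CPM, a ratio of 1.46 (1.23 to 1.75). Of 18 basement membrane genes 6 were higher and 0 lower, and 5 of these 6 (Col4a3, Col4a4, Col4a6, Lamb1 and Nid1) were called in Myh6-R404Q as well, against the same WT cells. Of 14 elastic fibre genes 0 were called in either direction, and Eln had a ratio of 0.935 (0.774 to 1.13).

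Of 11 proteoglycans 4 were higher and 0 lower. Aspn, asporin, a proteoglycan that binds TGF-beta, was at 111, 128 and 225 CPM in WT, Myh6-R404Q and Prkag2-p.R299Q members (ratio 2.03, 1.68 to 2.47), and Podn at 80.9, 51.3 and 127 CPM (1.56). Of 9 activated fibroblast genes 3 were higher and 0 lower, with a median log2 ratio of 0.37 that was -0.24 with thinned cells. Postn had a ratio of 1.57 (1.121 to 2.24), which was inside 1.5-fold with 4 rule genes required, and Ccn5, a relative of Ccn2, was at 27.5, 26.1 and 53.2 CPM (1.93, 1.31 to 2.92). Fn1, fibronectin, was at 18.1, 18.6 and 30.5 CPM, with a ratio of 1.69 that was 0.243 with thinned cells and 0.719 with 4 rule genes required. Timp3, a matrix-bound inhibitor of proteases, was at 229, 200 and 360 CPM (1.57, 1.37 to 1.81).

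Inmt (chromosome 6, 55170626 to 55175043), a methyltransferase of fibroblasts, had the highest ratio of the 8 genes named on the high side. It was at 22, 53.6 and 82.7 CPM in WT, Myh6-R404Q and Prkag2-p.R299Q members, 3.76 times WT (2.51 to 5.83), and the ratio in adventitial-like cells was 3.01. Fkbp5, a cochaperone and a target of the glucocorticoid receptor, was at 458, 455 and 1008 CPM (2.20, 2.01 to 2.42), against a ratio of 1.40 in adventitial-like cells. Clvs1, a lipid-binding protein of vesicles, was at 36.1, 75.0 and 101 CPM (2.81), and Pdlim3, an actin-associated protein, at 44.0, 102 and 91.6 CPM (2.08). Catspere2 (3.04), Fbxl13 (2.92) and Prelp (2.27) were the others, of which Prelp was at 0.896 with thinned cells. The glucocorticoid receptor gene Nr3c1 had a ratio of 1.06, and Aldh1a1, a retinaldehyde dehydrogenase, was at 476, 555 and 718 CPM (1.51).

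On the low side 27 genes met the rule. Besides Mmp3, Kcnn3, Junb and the clock gene Arntl (0.343, 0.197 to 0.584), these included Hspb6, Eef1a2, Pgam2 and Hrc, all abundant in muscle, at ratios of 0.320, 0.355, 0.382 and 0.384, beside the lower muscle RNA of these members. Ccl21a, a chemokine of lymphatic vessels, was at 53.4, 24.7 and 13.3 CPM (0.249), and Pnpla2, the triglyceride lipase, at 34.6, 21.0 and 11.8 CPM (0.342). Of 17 respiratory chain genes 5 were lower and 0 higher (median log2 ratio -0.40), whereas 0 of 17 were called in Myh6-R404Q. Of these 5, Ndufb8, Cox4i1, Atp5a1 and Atp5o came inside 1.5-fold with thinned cells, and Cycs did not. The part of the lower muscle RNA of these members in the respiratory chain ratios was not tested. Of 19 lipid genes 3 were higher (Apoe, Aldh1a1 and Inmt) and 5 lower, with a median log2 ratio of 0.02, and among the lower was Cd36, a fatty acid transporter of vessels and muscle, at 263, 142 and 84.7 CPM. Of 8 chemokines and cytokines 3 were lower (Ccl2, Cxcl1 and Cxcl12, median log2 ratio -0.48), of 6 acute phase genes 3 (-0.67) and of 13 heat shock genes 4 (-0.46), with 0 higher in each list. C7 had a ratio of 0.915 (0.840 to 0.996). Of 15 clock genes 1 was higher and 3 lower. Of the genes named for this comparison, Ccn5, Timp3, Lamb1, Lum, Podn, Col4a6, Cxcl1 and Apoe also came inside 1.5-fold with thinned cells. With 4 rule genes required, Ccl2, Nid1, Pnpla2, Lum and Podn did so. Aldh1a1 did so over totals without muscle and mitochondrial RNA and with at least 1000 UMIs per barcode. Adam12, Col4a6 and Ndufb8 did so with doublets kept.

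**Figure D4:**
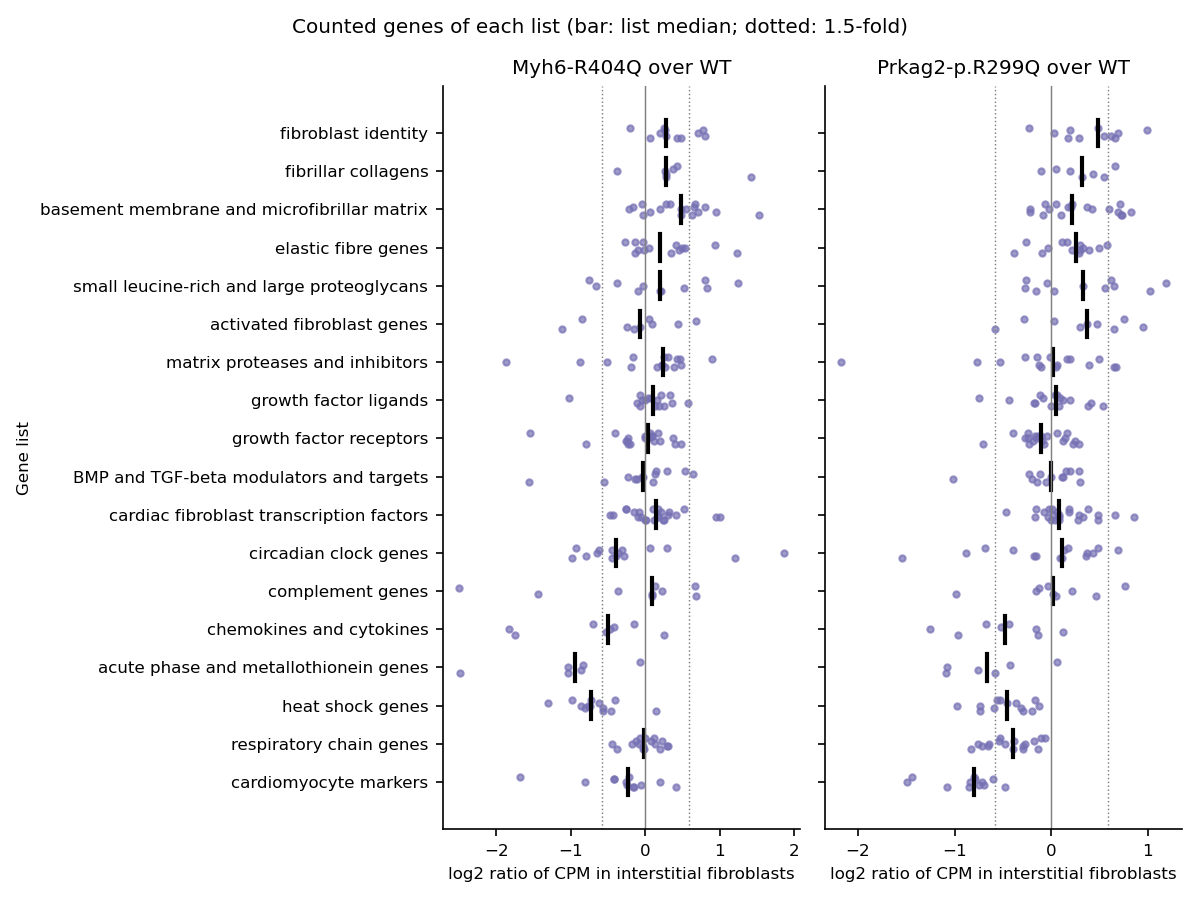
Log2 ratio of CPM in interstitial fibroblasts (x axis) of Myh6-R404Q (left) and Prkag2-p.R299Q (right) over WT for the counted genes of 18 lists (y axis). Points are genes, black bars list medians and dotted lines 1.5-fold. Basement membrane genes had medians of 0.48 and 0.21, acute phase genes of -0.95 and -0.67, and cardiomyocyte markers of -0.23 and -0.80.

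Set against each other, members of the mutant libraries differed in clock genes, in C7, Postn and Eln, in lipid genes and in markers of muscle and vessels. Of 7529 genes, 244 were higher (3.24%) and 328 lower (4.36%) in Prkag2-p.R299Q than in Myh6-R404Q members, with a median log2 ratio of -0.03. Of 15 clock genes 6 were higher and 3 lower: Arntl had a ratio of 0.149 (0.0919 to 0.232), Npas2 of 0.150 (0.106 to 0.206) and Clock of 0.511, whereas Dbp had a ratio of 2.66 (2.01 to 3.56), Bhlhe41 2.48, Tef 2.22, Per2 2.11, Per3 2.10 and Nr1d2 1.66. C7 was 5.18 times higher (4.54 to 5.91) and Postn 3.42 times (2.36 to 5.06). Ret had a ratio of 2.23 (1.67 to 3.01). In adventitial-like cells the Postn ratio was 0.872 (0.564 to 1.35). Eln was 0.400 times the Myh6-R404Q level (0.347 to 0.459), Col5a3 0.468 times (0.411 to 0.532) and Rgs6 0.380 times (0.321 to 0.448). Of 19 lipid, retinoid and glucose genes 1 was higher and 8 lower (median log2 ratio -0.56), and of 9 activated fibroblast genes 3 were higher and 1 lower (0.55). Of 12 cardiomyocyte markers 6 were lower (-0.63), of 6 counted endothelial markers 4 (-0.65) and of 17 respiratory chain genes 4 (-0.40), with 0 higher in each list. The part of muscle and vessel RNA in the lipid ratios, which include Lpl, Cd36 and Acsl1, was not tested. Klhl29, at 115, 63.8 and 191 CPM in WT, Myh6-R404Q and Prkag2-p.R299Q members, and Angpt2, a vessel-destabilising ligand, at 25.9, 12.1 and 34.5 CPM, were higher in Prkag2-p.R299Q. Grm7, a glutamate receptor, was at 18.1, 44.3 and 6.40 CPM, and Gucy1a1, a subunit of the nitric oxide receptor, at 37.7, 80.2 and 32.0 CPM. With the matrix as deposited, the ratios between the mutants of C7, Ret, Col5a3, Angpt2, Dbp, Bhlhe41, Tef, Per2, Per3 and Nr1d2 came inside 1.5-fold.

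**Figure D5:**
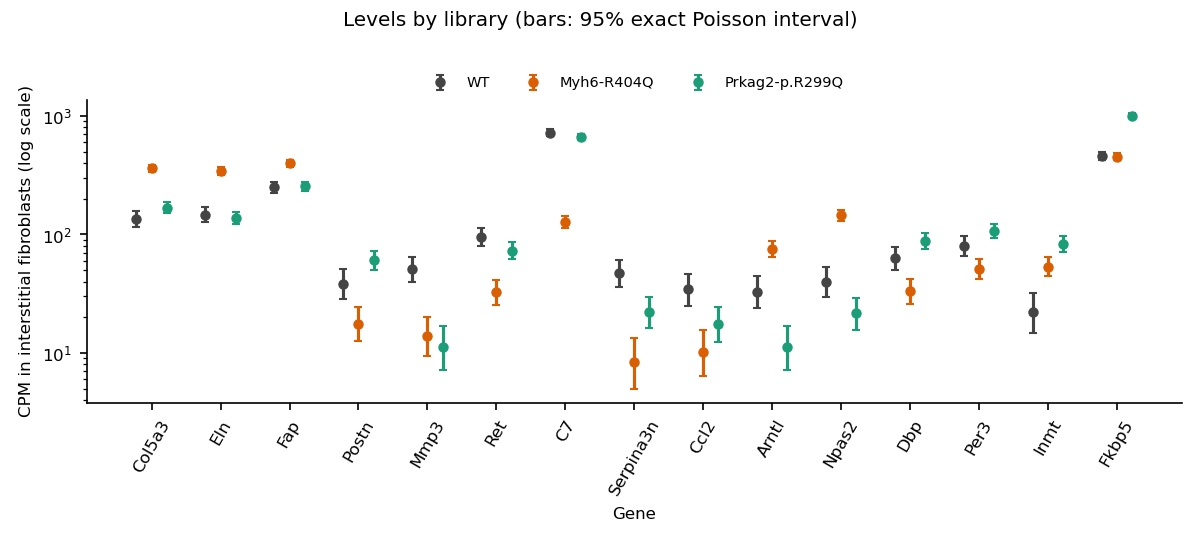
Level (y axis, CPM on a log scale) of 15 genes in interstitial fibroblasts of the 3 libraries, with 95% exact Poisson intervals for counting error only. Myh6-R404Q members were lowest for C7, at 128 CPM against 725 and 663, and highest for Npas2, at 145 CPM against 40.1 and 21.7, while Mmp3 was at 51.1 CPM in WT against 14.0 and 11.3.

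Behind these ratios stood 1272657, 2145599 and 2030598 UMIs over members, in the order WT, Myh6-R404Q and Prkag2-p.R299Q. Of 206 ratios named or called by these rules, 85 stayed past 1.5-fold under all 7 other settings tried, and 121 came inside under at least 1 of them.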

How the data were processed

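The authors deposited whole-number UMI counts of 32285 genes. These were made with Cell Ranger 7.0.1 on mm10 per the submitters' processing notes, from 10x Genomics libraries that read transcript 3-prime ends. Kept barcodes had 500 or more UMIs over 300 or more genes, with no more than 20% mitochondrial, and Scrublet in scanpy 1.11.5 removed 17.8%, 16.6% and 14.0% of the WT, Myh6-R404Q and Prkag2-p.R299Q barcodes as doublets (14.4%, 10.1% and 6.36% expected). Free RNA was not removed. The 12662 barcodes of suffix 3 were used of the Myh6-R404Q matrix, since suffixes 1 and 2 equal the other matrices with 0 entries that differ.

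UMIs were summed over the members of a library and given as CPM of their total. CPM have exact Poisson, shares exact binomial, CPM ratios exact conditional binomial and share ratios log-normal intervals, at 95%. A sum of 0 stood at 3 counts in a ratio. With 1 library per genotype no test was made. Reference cells had fewer than 3 detected genes of each fibroblast rule set. Endothelial and macrophage ones carried at least 4 of their own markers and at most 1 of the other's, with no limit on cardiomyocyte markers. Cardiomyocyte ones carried at least 6 of their own and at most 1 of each of these types.

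Named were the rule genes, Pdgfra and Dcn, the 10 highest and lowest ratios per comparison (rule given in the report), the 3 most abundant members of a list and any past 1.5-fold at a level of at least 0.5 times that outside the fibroblasts, the 15 genes highest and lowest against the other fibroblasts, and genes of high Fano factor (mean of at least 0.05 UMIs). Mitochondrial, ribosomal, hemoglobin, immunoglobulin, predicted and sex-linked marker genes were left out of these rankings. Other genes in the text were chosen from the lists after their values were seen. Some results by these rules are not reported here. The members and the gene lists were chosen with earlier results of these data known. The ratio functions were tested on simulated data. Gene positions are from GENCODE on GRCm38, and promoters from RefSeq. Alternatives concerned doublets, depth, the number of rule genes, the deposited Myh6-R404Q matrix, scaling with TMM in edgeR 4.0.16, the CPM total and the minimum level.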

Additional observations from a re-analysis of the deposited data

Results flagged for a closer look

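A few of 7529 counted genes moved in opposite directions in interstitial and adventitial-like fibroblasts between Myh6-R404Q and WT, by at least 1.5-fold each way. They were Postn, Fat3, Kcnd2, Lrrtm3 and Ppp1r18, with intervals that left out 1 in both populations. Other genes did so in the comparisons of Prkag2-p.R299Q with WT and with Myh6-R404Q. How many would do so by counting error alone was not tested. The difference between the populations was not tested, since each rests on 1 library per genotype. Postn had a ratio of 0.460 (0.293 to 0.717) in interstitial cells, at 38.5 and 17.7 CPM in WT and Myh6-R404Q, and of 3.07 (1.76 to 5.51) in adventitial-like cells, at 17.7 and 54.3 CPM. The Postn ratio in interstitial cells was 1.001 with the matrix as deposited. It was also inside 1.5-fold with thinned cells or with 4 rule genes required. Fat3, an atypical cadherin, had ratios of 2.23 (1.57 to 3.23) and 0.225 (0.0246 to 0.992), the latter at 11.5 and 2.59 CPM. Kcnd2, a potassium channel of heart muscle, had ratios of 0.633 (0.518 to 0.774) and 1.502 (1.14 to 1.99), and over cells outside the fibroblasts it was at 1592 CPM in WT and 1976 in Myh6-R404Q, above its level in either fibroblast population.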

How the results depend on the processing

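No paired analysis was possible because each genotype had 1 library. The share of members kept its direction against WT under all settings. For Myh6-R404Q over WT the ratio was 1.87 with at least 1000 UMIs per barcode, 1.73 with cells thinned to 1000 UMIs, 2.62 with 4 rule genes required and 1.65 with the matrix as deposited. For Prkag2-p.R299Q over WT it was 2.07, 1.64 and 3.03 under the first 3 of these. For Prkag2-p.R299Q over Myh6-R404Q it was 1.44 with the matrix as deposited and turned to 0.951 with thinned cells. Counts of genes past 1.5-fold are given in the order higher and lower for Myh6-R404Q over WT, Prkag2-p.R299Q over WT and Prkag2-p.R299Q over Myh6-R404Q. With thinned cells they were 1131, 945, 1146, 1164, 917 and 1143, and with 4 rule genes required 753, 609, 687, 714, 434 and 530, both from fewer UMIs. With no minimum level they were 2441, 2723, 2206, 2986, 2058 and 2494, and with a mean of at least 50 CPM 151, 142, 133, 156, 94 and 110. With the matrix as deposited, which adds WT and Prkag2-p.R299Q cells to Myh6-R404Q, the counts were 162 and 123 for Myh6-R404Q over WT and 14 and 91 for Prkag2-p.R299Q over Myh6-R404Q. Of single genes, these changed direction. For Myh6-R404Q over WT, thinning gave 0.902 for C1ra, 1.07 for Dbp and 0.694 for Osr1, 4 rule genes gave 1.19 for Cxcl12, and the deposited matrix gave 1.09 for Bhlhe41, 1.07 for Podn and 1.001 for Postn. For Prkag2-p.R299Q over WT, thinning gave 0.996 for Adamts15, 1.09 for Cebpb, 0.243 for Fn1 and 0.896 for Prelp, and 4 rule genes gave 1.31 for Cxcl12 and 0.719 for Fn1. For Prkag2-p.R299Q over Myh6-R404Q, Fn1 was 0.243 when thinned and 0.905 with 4 rule genes, and the deposited matrix gave 0.947 for Ccl2 and 0.982 for Serpina3n. For each of these the cause was not tested. Of the list medians 657 values were close to the first and 9 moved. Depth limits genes near 20 CPM, which rest on few UMIs.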
